A study of Mus musculus with 6 samples.

Results

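The keratin genes (Krt) and the keratin-associated protein genes (Krtap) were examined in ATAC-seq peak lists of Pnd 5 (postnatal day 5) mouse spermatogonia, the germ cells that divide by mitosis at the base of the seminiferous tubule. Members were the protein-coding genes whose mm10 symbol is Krt followed by a number or Krtap followed by a pair of numbers. There were 106 of them, 53 Krt and 53 Krtap, among 21440 protein-coding genes whose 5′ end was known. ATAC-seq uses the Tn5 transposase, which cuts open chromatin and inserts sequencing adapters there, so that a peak marks an accessible site. Of the 6 libraries, 3 came from Sirt7-/- mice (S7KO) and 3 from wild-type mice (WT), each from 50000 cells of Pnd 5 testes. Both groups were on a 129S1/Sv background, and the cells had been enriched by differential plating, which removes somatic cells that attach to the dish. S7KO animals lacked SIRT7, an enzyme that removes acetyl groups from histone H3 (H3K36ac), in every tissue, so a change in the germ cells could not be told apart from one that came through the somatic cells. The only contrast of the design was S7KO against WT, which asked whether loss of SIRT7 altered chromatin accessibility. The replicate numbers (1, 2 and 4 in each genotype) are those of the titles.

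Keratins are the intermediate filament proteins of epithelial cells. Type I keratins pair with type II keratins to build the filament, and each epithelium uses its own pairs: Krt8 and Krt18, with Krt7 and Krt19, in simple (single-layered) epithelia, Krt5 and Krt14 in the basal layer of the epidermis, Krt1 and Krt10 in the layers above it, and separate sets in the inner root sheath and in the shaft of the hair. Keratin-associated proteins are small proteins that cross-link the keratins of the hair shaft. In the mouse, the type I genes lie together on chromosome 11, the type II genes and Krt18 on chromosome 15, and the Krtap genes partly among the type I genes and partly in clusters of their own, and germ cells are not known for using the epidermal and hair members.

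A gene was counted as having a promoter peak in a library when a peak lay within 1 kb of its 5′ end, the outermost end of the gene in RefSeq. By this count 28 of the 106 members (26.4%) had a promoter peak in all 6 libraries, whereas 68.2% of all protein-coding genes did. No promoter peak was listed in any library for 65 members (61.3%), against 27.7% of all genes. The remaining 13 members had one in 1 to 5 libraries. Within 3 kb, 39 members (36.8%) had a peak in all 6 libraries, against 74% of all genes. The members were thus open less often than protein-coding genes as a whole, and more often than the vomeronasal type 1 receptor genes, another clustered family with a tissue-restricted use, of which 2 of 228 had a promoter peak in all 6 libraries.

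The classes differed in how many of their genes had a promoter peak. All 4 keratins taken here as the simple-epithelial class (Krt7, Krt8, Krt18 and Krt19) had a promoter peak in every library. So did 6 of 8 keratins of the inner root sheath and its companion layer, 6 of 16 keratins of the hair shaft, 4 of 21 epidermal and mucosal keratins and 5 of 53 keratin-associated proteins. Krt20, Krt222 and Krt80, 3 of the 4 keratins grouped as other simple or unassigned, also had one in every library. Krt23, the remaining keratin of that group, had one in 5. The groups differ in size, and no test was run between them. With a −log10 q of at least 3 the counts were 3 of 4 for the simple-epithelial keratins, 3 of 8 for the inner root sheath and companion layer, 5 of 16 for the hair shaft and 2 of 21 for the epidermal and mucosal keratins, so the inner root sheath and companion layer then stood close to the hair shaft (37.5% against 31.2%). With a −log10 q of at least 2, or with equal numbers of peaks, the inner root sheath and companion layer had 4 of 8. Over all genes the share was 68.2% in the main count and 66.0% at a −log10 q of at least 3. It was 67.4% at a −log10 q of at least 2 and 67.0% with equal numbers of peaks. The inner root sheath and companion layer lay near that share in the main count (75%) and below it under each of these settings.

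**Figure D1:**
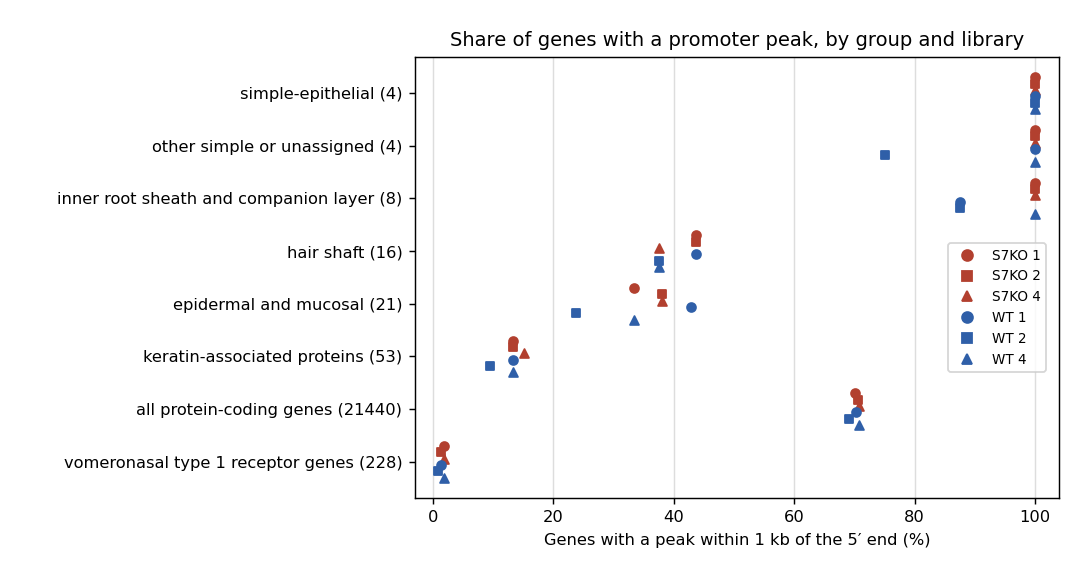
Each point is the percentage of the genes of a group (number of genes in brackets) with a peak within 1 kb of the 5′ end in 1 library, red for S7KO and blue for WT. Simple-epithelial keratins stand at 100% in every library, keratin-associated proteins at 9.43% to 15.1% and all protein-coding genes at 69.1% to 70.8%.

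The promoters of 5 members are shown to set the kinds of sequence beside each other: Krt8, Krt18 and Krt7 as simple-epithelial keratins with a peak in all 6 libraries, Krt73 as the member whose promoter peak had the best median rank, and Krt5 as an epidermal keratin with none. The Krt73 peak lay inside the gene in every library, so it did not cover the stretch shown for Krt73. Each is the 250 bases before the start, from RefSeq on GRCm38.p6 (the mm10 build), read 5′ to 3′ on the strand of the gene. Capitals mark CpG dinucleotides and the motif TATAAA. Krt8 is from the minus strand at chr15:102004343-102004592, Krt18 from the plus strand at chr15:102027966-102028215, Krt7 from the plus strand at chr15:101412153-101412402, Krt73 from the minus strand at chr15:101802361-101802610 and Krt5 from the minus strand at chr15:101712906-101713155.
Krt8: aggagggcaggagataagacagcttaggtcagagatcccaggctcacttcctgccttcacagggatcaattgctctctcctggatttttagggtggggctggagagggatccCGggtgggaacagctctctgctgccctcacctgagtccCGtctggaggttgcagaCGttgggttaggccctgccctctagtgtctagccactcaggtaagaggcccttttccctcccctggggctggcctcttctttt
Krt18: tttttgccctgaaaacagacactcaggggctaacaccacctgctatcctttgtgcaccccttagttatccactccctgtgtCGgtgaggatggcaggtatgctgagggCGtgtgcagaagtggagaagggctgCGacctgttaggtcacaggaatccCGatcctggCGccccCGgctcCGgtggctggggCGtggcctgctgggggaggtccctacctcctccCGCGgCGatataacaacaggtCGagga
Krt7: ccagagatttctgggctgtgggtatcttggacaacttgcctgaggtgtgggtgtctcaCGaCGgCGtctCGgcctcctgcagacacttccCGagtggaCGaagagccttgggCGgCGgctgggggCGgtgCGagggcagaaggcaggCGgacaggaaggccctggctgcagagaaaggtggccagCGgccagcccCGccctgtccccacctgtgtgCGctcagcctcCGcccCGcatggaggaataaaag
Krt73: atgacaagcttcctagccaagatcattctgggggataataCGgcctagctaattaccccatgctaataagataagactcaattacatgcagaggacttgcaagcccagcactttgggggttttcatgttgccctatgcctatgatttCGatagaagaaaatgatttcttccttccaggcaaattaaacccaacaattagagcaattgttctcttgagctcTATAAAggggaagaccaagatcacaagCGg
Krt5: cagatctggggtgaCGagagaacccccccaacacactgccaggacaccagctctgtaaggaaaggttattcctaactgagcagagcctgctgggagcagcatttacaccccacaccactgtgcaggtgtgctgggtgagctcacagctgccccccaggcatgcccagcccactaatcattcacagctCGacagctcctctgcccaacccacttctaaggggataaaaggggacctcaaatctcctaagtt

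Krt7 and Krt18 held 16 and 12 CpG in these 250 bases, whereas Krt8 held 3, Krt73 held 3 and Krt5 held 2. Across the 10629 protein-coding genes whose promoter in the table began at the 5′ end used here, the median was 7. An open promoter among the simple-epithelial keratins thus did not always carry many CpG, since Krt8 had the best-ranked peak of the 4 and the fewest CpG of the 3 that could be read. A stretch for Krt19 was not used here.

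Krt8, the type II partner of Krt18, had the best-ranked promoter peak of the simple-epithelial keratins in every library, and the widest in all but S7KO replicate 1. Its peak measured 2679, 2790 and 2766 bp in S7KO replicates 1, 2 and 4 and 2703, 2754 and 2752 bp in WT replicates 1, 2 and 4. The groups overlapped (mean 2745 ± 58.4 bp against 2736 ± 28.9 bp, SD, 3 libraries each; exact two-sided permutation test, p = 0.8). Ranked by −log10 q within its own list, where 0% is the strongest peak, it stood between 15.7% and 22.1%. In S7KO replicate 1 the peak reached 1221 bp upstream and 1457 bp downstream of the 5′ end.

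Krt18, the type I partner that lies next to Krt8 on chromosome 15, had a narrower and weaker peak. It measured 986, 975 and 1091 bp in S7KO and 1009, 974 and 1008 bp in WT, with overlapping groups (1017 ± 64.0 bp against 997 ± 19.9 bp, SD, n = 3 each; exact two-sided permutation test, p = 0.8). Its rank was 60.3% to 78.8%, in the weaker part of each list. Its −log10 q was 2.73 in WT replicate 2 and 4.63 to 5.98 in the other libraries, so that only WT replicate 2 lost the Krt18 peak when a −log10 q of at least 3 was asked for.

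Krt7, used in ductal and glandular epithelia, had a peak whose width varied more within a genotype than between genotypes. The widths were 2792, 1394 and 2697 bp in S7KO and 2109, 1233 and 2470 bp in WT (2294 ± 781 bp against 1937 ± 636 bp, SD, n = 3 each; exact two-sided permutation test, p = 0.5). The narrow peaks of S7KO replicate 2 and WT replicate 2 ended 593 and 484 bp downstream of the 5′ end, while those of the other libraries ran on to between 1294 and 2031 bp. On the upstream side the 6 peaks began between 686 and 814 bp before the 5′ end.

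Krt19, the smallest keratin, had a peak of 1536, 1687 and 1525 bp in S7KO and 1441, 1485 and 1439 bp in WT. Every S7KO library was wider than any WT library (1583 ± 90.5 bp against 1455 ± 26.0 bp, SD, n = 3 each). The exact two-sided permutation test gave p = 0.1, the smallest value that 3 against 3 libraries allow, and p = 1 after Benjamini-Hochberg adjustment over the 14613 genes with a promoter peak in all 6 libraries. Its rank lay between 35.0% and 62.3%.

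**Figure D2:**
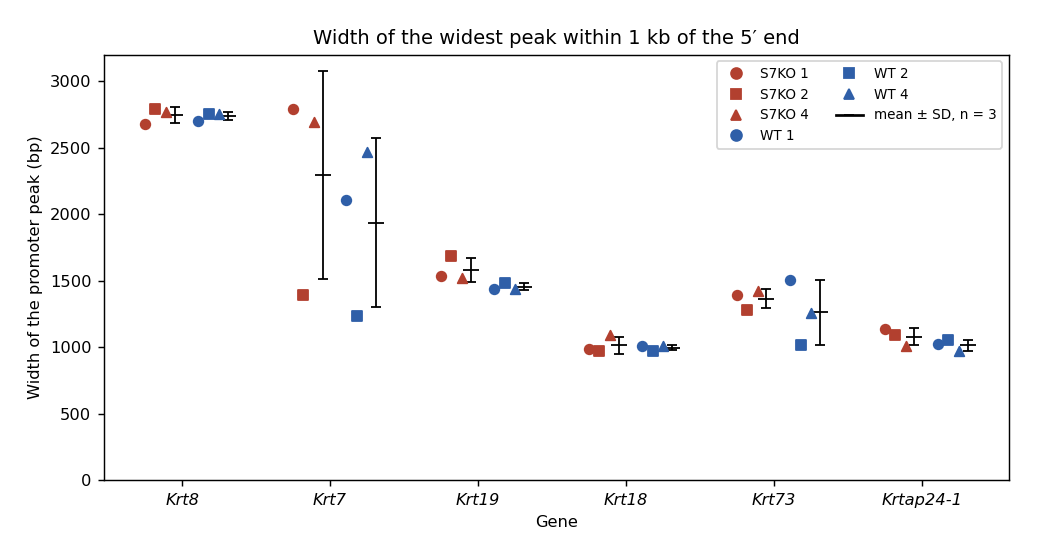
Width in bp of the widest peak within 1 kb of the 5′ end, 1 point per library, for Krt8, Krt7, Krt19, Krt18, Krt73 and Krtap24-1 (red S7KO, blue WT), with the mean and SD of 3 libraries in black. Krt8 stayed between 2679 and 2790 bp in all 6 libraries, whereas Krt7 ranged from 1233 to 2792 bp.

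Among the keratins of the other classes, Krt80, expressed in differentiating epithelial cells, had a promoter peak of 1684 to 1810 bp that ranked between 13.4% and 30.4%. Krt222, a keratin-like gene at the edge of the chromosome 11 cluster, had widths of 1273, 1345 and 1358 bp in S7KO and 718, 1157 and 1267 bp in WT. Krt20, known from the lining of the gut and the bladder, ranked between 20.7% and 42.5%. Each of the 3 peaks thus ranked above the middle of its list in every library.

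Each of the 8 keratins of the inner root sheath and companion layer had a promoter peak in at least 5 libraries. Krt73, a type II keratin of the inner root sheath cuticle, had the best median rank of all members over the 6 libraries, 13.3%. Its peak ranked 8.88%, 10.1% and 19.2% in S7KO and 14.0%, 12.7% and 18.1% in WT, behind Krt8 and Krt80 in S7KO replicate 4 and behind Krt80 in WT replicate 4. The widths were 1395, 1284 and 1423 bp in S7KO and 1510, 1018 and 1260 bp in WT, with overlapping groups. In none of the libraries did the peak cover the 5′ end itself. It began 82 to 454 bp inside the gene and reached up to 1632 bp from the 5′ end. Krt27, a type I keratin of the inner root sheath, ranked between 23.2% and 34.8% and its peak covered the 5′ end. The others were weak: the median rank over the 6 libraries was 61.5% for Krt25, 69.8% for Krt26, 78.0% for Krt28 and 92.2% for Krt72. Krt71 missed a promoter peak in WT replicate 1 only, and Krt75, the companion layer keratin, in WT replicate 2 only.

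Krt26 had the clearest difference in width between the groups among these 8. Its peak measured 1337, 1356 and 1521 bp in S7KO and 881, 820 and 848 bp in WT, without overlap (1405 ± 101 bp against 849.7 ± 30.5 bp, SD, n = 3 each; exact two-sided permutation test, p = 0.1, and 1 after adjustment over 14613 genes). The neighbouring Krt25 measured 2686, 2318 and 2370 bp in S7KO and 2395, 625 and 1137 bp in WT. There the groups overlapped, with WT replicate 1 inside the range of the S7KO libraries.

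Of the hair shaft keratins, Krt35 and Krt40 on chromosome 11 and Krt81, Krt86, Krt87 and Krt88 on chromosome 15 had a promoter peak in all 6 libraries. The 4 on chromosome 15 lie next to each other. Krt87 had the widest of these peaks, 2324 to 2915 bp, at ranks of 39.6% to 55.0%. Krt40 had a narrow peak of 475 to 617 bp and the best single rank of the group, 19.8% in S7KO replicate 2. Krt84 had a weak peak in 3 libraries. No promoter peak was listed for the other 9 (Krt31, Krt32, Krt33a, Krt33b, Krt34, Krt36, Krt39, Krt82 and Krt83) in any library.

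Of the epidermal and mucosal keratins, Krt4 (the mucosal type II keratin of the oesophagus), Krt2 (upper epidermis), Krt17 (basal cells of skin appendages) and Krt24 had a promoter peak in all 6 libraries. Krt4 ranked between 38.6% and 50.2%, and its peak was the only one of the 4 that covered the 5′ end used here in every library. The Krt17 peak lay in the stretch between Krt17 and Krt42, whose 3′ end is 1853 bp from the 5′ end of Krt17, so 1 peak served both counts. A promoter peak was found in 5 libraries for Krt6b and Krt77, in 4 for Krt13, in 3 for Krt79, in 2 for Krt12 and in 1 for Krt6a.

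The keratins that define the epidermis had no peak within 1 kb of their 5′ ends. Krt5 and Krt14, the basal pair, had no peak within 3 kb of the 5′ ends used here in any library. The nearest peak lay 9756 to 9921 bp away for Krt5 and 3561 to 3764 bp away for Krt14. Krt14 has a further RefSeq start 1480 bp inside that end. No peak lay within 1 kb of this inner start, but the nearest peak lay within 3 kb of it in all 6 libraries. For Krt10 the nearest peak lay 8027 to 10618 bp away. RefSeq also places a start of Krt10 8085 bp inside the 5′ end used here. A peak lay within 1 kb of that start in 1 library. The peak at the 3′ end of Krt10 lay within 3 kb of that start in all 6 libraries, at ranks of 4.24% to 6.34%. Krt1 had a peak between 1 and 3 kb away in 3 libraries (S7KO replicates 1 and 2 and WT replicate 1) and none within 3 kb in the other 3. Krt76, a keratin of the palate, fell just outside the limit, with a peak 1081 to 1128 bp away in all 6 libraries.

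**Figure D3:**
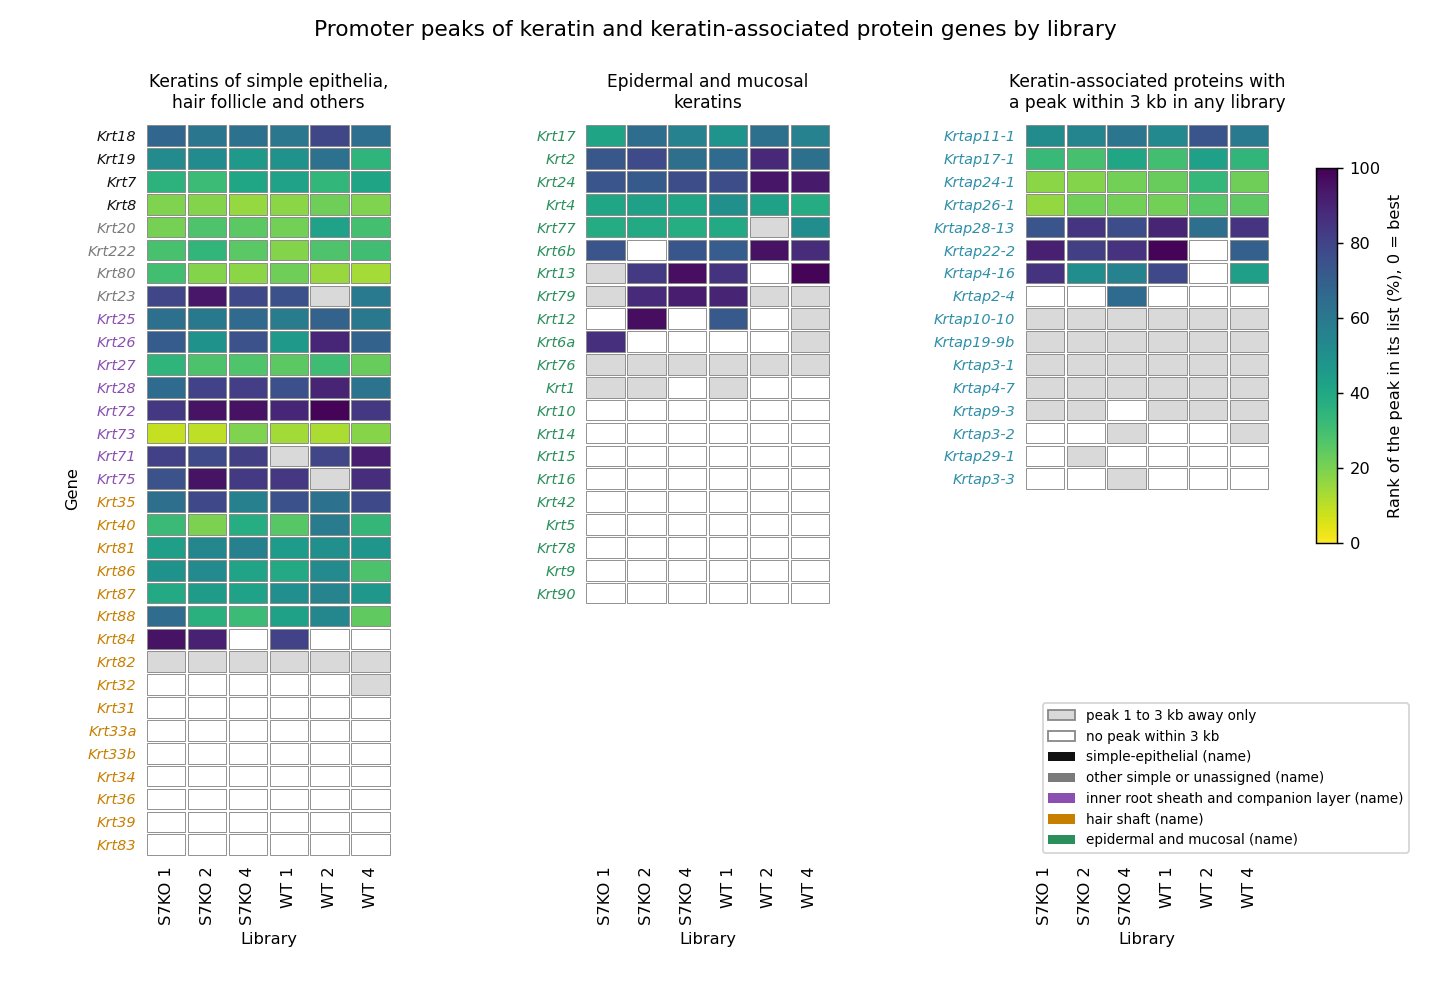
Promoter peaks of all 53 Krt genes and of the 16 Krtap genes with a peak within 3 kb in any library, 1 column per library, coloured by the rank of the best peak within 1 kb in its list (0% is the strongest). Grey boxes are peaks found only between 1 and 3 kb from the 5′ end used here, and white boxes are genes with none. Krt5, Krt10 and Krt14 are white throughout.

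Of the keratin-associated proteins, 5 had a promoter peak in all 6 libraries: Krtap24-1, Krtap26-1 and Krtap11-1 on chromosome 16, Krtap17-1 on chromosome 11 and Krtap28-13 on chromosome 1. Each of the 5 peaks covered the 5′ end in every library. The Krtap24-1 peak measured 1137, 1093 and 1010 bp in S7KO and 1027, 1053 and 972 bp in WT and ranked between 17.2% and 33.4%. The Krtap26-1 peak ranked between 16.4% and 26.2%, and Krtap24-1 and Krtap26-1 lie close together at one end of the chromosome 16 cluster. These single-exon genes are short, with a median length of 819 bp, so promoter and gene body could not be told apart in them. Krtap4-16 and Krtap22-2 had a peak in 5 libraries, all but WT replicate 2, and Krtap2-4 in S7KO replicate 4 only. The other 45 had none in any library, and the 5 Krtap5 genes on chromosome 7 and the 3 members on chromosome 10 were among them.

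Where a member did have a promoter peak in all 6 libraries, that peak was weaker than the typical promoter peak, though often near the middle of its list. The median rank of the 28 peaks was 40.2% to 54.4% by library, against 6.84% to 9.20% for all 14613 such genes. Every one of the 28 had a median rank worse than the median gene. Their median width was 880 to 1064 bp, against 1326 to 1458 bp for all such genes. Ranks worse than those of all such genes were shared by all groups. The median for the 4 simple-epithelial keratins was 38.4% to 48.2%. It was 52.3% to 78.9% for the 6 inner root sheath keratins and 29.5% to 43.6% for the 5 keratin-associated proteins. Of the 13 members with a promoter peak in 1 to 5 libraries, 11 had none in WT replicate 2, the shallowest library, and 3 to 5 had none in each of the others.

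**Figure D4:**
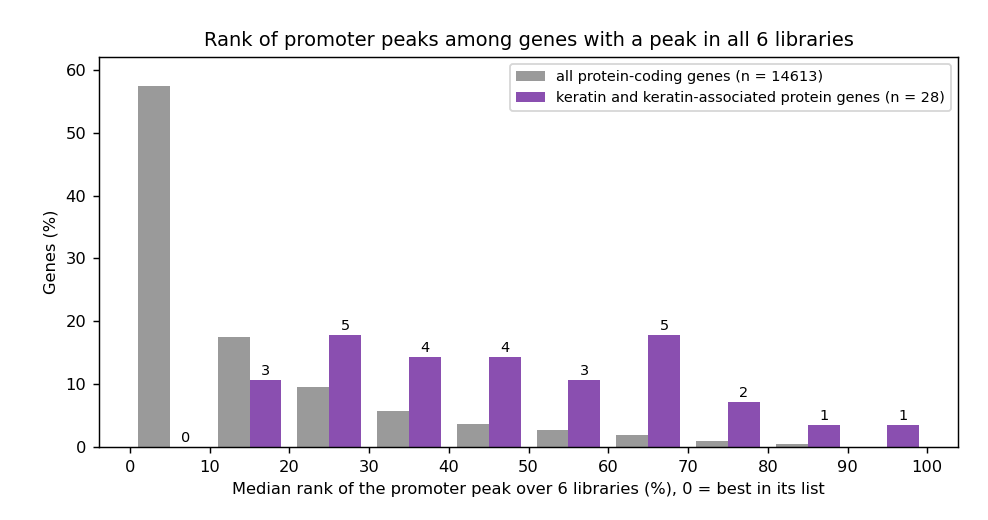
Percentage of genes with a promoter peak in all 6 libraries by the median rank of that peak, in steps of 10% of the list, for all 14613 such genes (grey) and the 28 keratin and keratin-associated protein genes (purple, with the number of genes above each bar). Of all genes, 57.4% fell in the top step, where no member lay.

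A peak covered the 5′ end itself in all 6 libraries for 20 of the 106 members, against 59.7% of all genes. Of the 28 members with a promoter peak in all 6 libraries this was 71.4%, against 87.5% of the corresponding genes overall. In 5 of the 28 (Krt73, Krt2, Krt17, Krt86 and Krt88) no library had a peak over the 5′ end, and in Krt24, Krt40 and Krt72 some had. For Krt2, RefSeq also places a start 787 bp inside the 5′ end used here. That start lies within the merged region called there in all 6 libraries. All 4 simple-epithelial keratins were covered in every library. No outermost 5′ end of a protein-coding gene outside the members lay within 1 kb of any of the promoter peaks of the members. Non-coding genes, inner starts and protein-coding genes without a known 5′ end were not part of this check.

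Several keratins with no promoter peak had a peak at the other end of the gene. Of the 53 Krt genes, all longer than 2 kb, 14 had a peak within 1 kb of the 3′ end in all 6 libraries (26.4%), against 18.4% of the 19058 protein-coding genes of that length. In 9 of the 14 the 5′ end had no peak in at least 1 library (Krt1, Krt10, Krt14, Krt42, Krt71, Krt77, Krt79, Krt82 and Krt90), and 7 of those 9 were epidermal and mucosal keratins. Over all genes of that length, 712 of 3507 showed this arrangement. The Krt10 peak was the strongest, at ranks of 4.24% to 6.34% and widths of 938 to 1163 bp. The 3′ peaks of Krt10 and Krt14 also lay within 3 kb of the inner RefSeq starts of these genes. The Krt1 peak was among the widest, 1547 to 2371 bp, and that of Krt79 ranked between 23.5% and 30.4%. None of the simple-epithelial keratins had a peak at the 3′ end in all 6 libraries.

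Promoter sequence was compared for the groups in which at least 80% of the genes had a RefSeq promoter at the 5′ end used here. This was the case for 48 of 53 keratin-associated proteins and for 8 of 8 inner root sheath and companion layer keratins, but for 78 of 106 members (73.6%) as a whole, so the comparison is void for the whole family. TATAAA, searched on the strand of the gene with its first base 45 to 15 bases before the start, was found in 32 of 48 keratin-associated proteins (66.7%) and in 6 of the 8 inner root sheath and companion layer keratins (Krt25, Krt26, Krt27, Krt28, Krt71 and Krt73). Over the whole table of 10629 promoters it was found in 4.15%. TGAGTCA, the AP-1 site, searched on both strands of the 250 bases, was found in 6 of 48 keratin-associated proteins (12.5%) and in 4.46% of all promoters.

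The keratin-associated protein promoters held few CpG, with a median of 1 in the 250 bases against 7 overall. Pooled over all genes, 9.99% of the 3244 promoters with 0 to 2 CpG had a promoter peak in all 6 libraries, against 97.6% of the 4357 with 11 or more. Among keratin-associated proteins with 0 to 2 CpG it was 1 of 28, and among those with 3 to 5 it was 3 of 19, beside 43.6% of all promoters with 3 to 5. Of the 6 inner root sheath and companion layer keratins with 3 to 5 CpG, 4 had one. The part of CpG content in the missing peaks was not tested.

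Reads were kept only where they mapped uniquely, and near-identical promoters could lose reads. Among the 40 keratin-associated proteins with no peak and a promoter to compare, 3 had a promoter at least 95% identical to that of another gene over at least 270 bases (Krtap4-13, Krtap4-9 and Krtap5-2) and 7 at least 90%. Of the 53 Krt genes, 30 had a promoter to compare, a share below the one asked for in the comparison of promoter sequence above. Krt6a, Krt6b, Krt33a, Krt81, Krt83 and Krt86 were among those that could not be compared. None of the 30 Krt promoters, open or closed, had such a match, and none of the open keratin-associated protein promoters did. Matches of the remaining Krt promoters were not tested. The effect of this filter on the missing peaks was not tested.

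The type II cluster on chromosome 15 was dense in peaks. It runs from Krt80 to Krt18 (mm10 positions 101348315 to 102032026) with 26 members. Peaks covered 7.75%, 7.66% and 7.90% of it in S7KO and 7.84%, 6.14% and 8.05% in WT, against 3.25% to 4.29% of the autosomes. Of its 65 merged regions, 52 (80%) were called in all 6 libraries, whereas 57.3% of the regions on autosomes were. The S7KO libraries had 53108 ± 843 bp covered and the WT libraries 50212 ± 7171 bp (SD, 3 libraries each; exact two-sided permutation test, p = 0.9, adjusted over the 2 Krt clusters 0.9). Without WT replicate 2 the WT mean was 54332 bp, above that of S7KO.

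The 5 widest regions called in all 6 libraries in this cluster lay over the 5′ ends of Krt87 (2915 bp), Krt7 (2846 bp) and Krt8 (2792 bp), at the 3′ end of Krt1 (2423 bp) and inside Krt80 (2150 bp). The longest stretch with no peak in any library was 80.6 kb, between Krt75 and Krt6b. On its far side lie Krt6b, Krt6a and Krt5, none of which had a promoter peak in all 6 libraries.

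**Figure D5:**
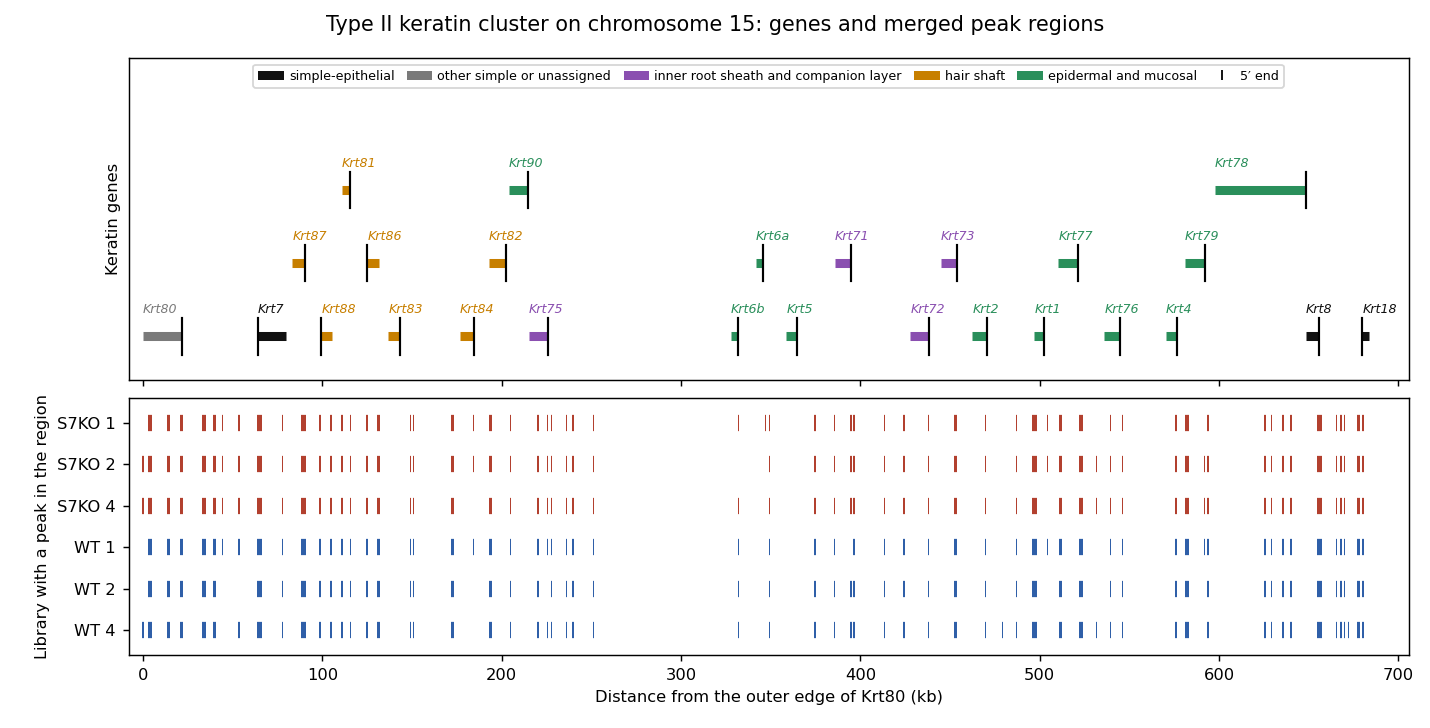
Genes of the type II keratin cluster coloured by class with the 5′ end as a black mark (top) and the merged peak regions called in each library (bottom; red S7KO, blue WT), in kb from the outer edge of Krt80. Of the 65 regions, 52 are present in all 6 libraries, and a stretch of 80.6 kb has none.

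The chromosome 11 cluster, from Krt222 to Krt42 (99232761 to 100269951), holds 27 Krt and 23 Krtap genes. Peaks covered 3.04% to 4.54% of it, close to the autosomal range, and 38 of its 82 regions were called in all 6 libraries. The S7KO libraries had 45106 ± 2740 bp covered and the WT libraries 39207 ± 6916 bp (SD, 3 libraries each; exact two-sided permutation test, p = 0.2, adjusted 0.4). Without WT replicate 2 the WT mean was 43036 bp. The widest regions lay over the 5′ end of Krt25 (2801 bp), inside Krt28 (2164 bp and, at its 3′ end, 1775 bp), 9337 bp from Krt33a (2116 bp) and 22015 bp from Krt19 (1827 bp). The longest stretch without a peak, 203.8 kb, held the 5′ ends of Krtap4-6, Krtap4-8, Krtap4-9 and Krtap4-13.

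The Krtap clusters were poorer in peaks. On chromosome 16 (88610709 to 89571183, 21 members) peaks covered 1.27% to 2.26% of the span, below the autosomal range in every library, and 19 of 32 regions were called in all 6. The widest of these, 2614 bp, lay 3588 bp from Krtap7-1, and only 1 of the 5 widest lay over a member, Krtap11-1 (1732 bp). Krtap13, Krtap14 and Krtap15 also lie in this span but are not members, since their symbols hold a single number. Regions called in all 6 libraries lay within 1 kb of the 5′ ends of Krtap14 and Krtap15, and none was listed for Krtap13. On chromosome 7 (142174532 to 142304503, 5 members) 2 of 5 regions were called in all 6 libraries. The wider, 2874 bp, lay near the 5′ end of a gene that is not a member.

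Between the genotypes the lists of open members were alike. No member had a promoter peak in all 3 S7KO libraries and none in WT, or the reverse; over all genes these patterns made up 0.0326% and 0%. The number of members with a promoter peak was 37, 38 and 38 in S7KO and 38, 30 and 36 in WT (37.7 ± 0.577 against 34.7 ± 4.16, SD, n = 3 each). WT replicate 2 alone was low, and without it the WT mean was 37. Within 3 kb the numbers were 47, 47 and 46 in S7KO and 47, 41 and 48 in WT. In all 4 clusters no region was called in all libraries of 1 genotype and in none of the other. On autosomes 0.418% of regions were found in S7KO only and 0.0746% in WT only. These shares are too small for their absence to set the clusters apart.

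The width of the promoter peak could be compared for the 28 members open in all 6 libraries. In 5 of them every S7KO library was wider than any WT library (Krt19, Krt24, Krt26, Krt35 and Krt222), where 6.86% of all 14613 genes showed this. In Krt88 alone every WT library was wider, beside 1.64% of all genes. Krt24 measured 604, 646 and 649 bp in S7KO and 570, 474 and 225 bp in WT. Krt35 measured 801, 771 and 684 bp in S7KO and 595, 370 and 670 bp in WT. Krt88 measured 556, 615 and 591 bp in S7KO and 649, 875 and 658 bp in WT. Apart from Krt26, the gaps between the groups were small, 14 bp in Krt35 and 6 bp in Krt222. With 3 against 3 libraries no gene could go below p = 0.1, and none of the 14613 genes passed (exact permutation tests, 0 at an unadjusted p under 0.05).

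Other intermediate filament genes, and genes of keratin anchoring, of epithelial and hair regulation and of the cornified envelope, were counted in the same way. Of 16 other intermediate filament genes, 14 had a promoter peak in all 6 libraries (Vim, Des and the lamins Lmna, Lmnb1 and Lmnb2 among them) and Prph had none. Of 19 genes of the desmosome, hemidesmosome and plakin families, which anchor keratin filaments to the membrane, 14 had one, and Dsg1a, Dsg3, Dsc1 and Col17a1 had none. Of 16 regulators of epithelial and hair genes, 15 had one, including Trp63, Hoxc13 and Dlx3, while Foxn1 had none. Of 12 genes of the cornified envelope, the cross-linked protein shell of the outer epidermis, only Lor, Tgm1, Sprr1a and Casp14 had one. The shares of the other intermediate filament genes (87.5%) and of the regulators (93.8%) thus lay above the 68.2% of all genes. That of the desmosome, hemidesmosome and plakin genes (73.7%) lay near it, and that of the cornified envelope (33.3%) lay below it.

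The cells were described by promoter peaks of marker genes. Of 13 spermatogonia markers, 12 had a promoter peak in all 6 libraries, with Nanos2 as the exception. So had 8 of 8 Sertoli cell markers, 6 of 6 peritubular and stromal markers, 6 of 6 epithelial markers, 3 of 6 Leydig cell markers, 3 of 4 endothelial markers and 1 of 4 macrophage markers. A promoter peak in these lists therefore did not separate the cell types, and Krt8 and Krt18 are known from immature Sertoli cells as well as from epithelia. The part of other testis cells in the keratin peaks was not tested. The lists held 105754 to 133695 peaks per library, and the background coverage recovered from them, a relative measure of depth, was 3.02 in WT replicate 2 and 4.93 to 6.41 in the others.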

How the data were processed

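Each library had 1 deposited list of broad ATAC-seq peaks on mm10. Per the submitters' processing notes and the study's methods, the authors aligned reads with Bowtie2, kept uniquely mapped fragments without duplicates, shifted them for the Tn5 cut and called peaks with MACS2 2.2.5. The study's methods keep fragments from above nucleosome-free length up to a long limit, while its results speak of calls on merged nucleosome-free profiles. These statements conflict, and the lists did not settle which fragments were used. For each peak the authors deposited the caller's score, the fold enrichment (a ratio of pileup over local background), and −log10 p-values and −log10 q-values. The largest q-value was 0.0983. The score and the p-values were not used further.

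Gene ends were read from RefSeq's gene table for GRCm38.p6. The strand was taken from the RefSeq promoter table for 84 members and from GENCODE, by symbol and chromosome, for 22. The 2 sources gave the same strand for 99.4% of 15718 genes. Overlapping or touching peaks of different libraries were joined into 1 region. Peaks were ranked by −log10 q within their own list, and the widest peak of a gene within 1 kb was measured. Clusters were runs of at least 5 members with gaps under 500 kb. Single values were compared by exact two-sided permutation tests over all 20 ways to place 3 of 6 libraries in a group (smallest possible p 0.1), with Benjamini-Hochberg adjustment. The study describes the 3 ATAC-seq libraries of each genotype as independent biological samples, without saying how many animals went into each. Scores over the members were given without a p-value. Background coverage was solved from fold enrichment and −log10 p of peaks narrower than 300 bp. Scripts used Python 3.11.15, pandas 2.3.3 and BLAST+ 2.17.0 and were tested on simulated peaks.

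The members, the classes of keratins and the other lists were chosen with earlier results of these data known. Genes named were the 4 simple-epithelial keratins, every member with a promoter peak in all 6 libraries, members open in 1 genotype, up to 10 others by the number of libraries, the 5 widest regions of each cluster, and Krt1, Krt5, Krt10 and Krt14; further members were named after their values were seen. Alternatives tried were other distances and rules for a promoter peak, −log10 q limits of 2 and 3, equal numbers of peaks, a replicate block and leaving out each library.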

Additional observations from a re-analysis of the deposited data

How the results depend on the processing

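The number of members with a promoter peak in all 6 libraries, 28, stayed within 1.5 times under every alternative run. It was 20 at a −log10 q of at least 3 and 24 with the 105728 strongest peaks of each list. It was 37 when a peak at either end of the gene counted, and 28 to 33 when 1 library was left out. Over all genes the count went from 14613 (68.2%) to 14144 (66.0%) at a −log10 q of at least 3, a smaller relative loss than that of the members. The share of all genes was 67.0% with equal numbers of peaks and 71.7% with either gene end. No member was called in 1 genotype only under any of these alternatives, a pattern also rare over all genes in the main count (0.0326% and 0%). By class the count moved more: inner root sheath and companion layer keratins fell from 6 to 4 with equal numbers of peaks or a −log10 q of at least 2 and to 3 at 3, and epidermal and mucosal keratins from 4 to 2 at 3 or with the peak midpoint in the window. The difference of S7KO minus WT in members with a peak within 3 kb was 1.33 and turned to −0.333 with equal numbers of peaks. When each library was left out in turn it ranged from −0.833, without WT replicate 2, to 2.67. Over the same exclusions the difference within 1 kb ranged from 0.667 to 4.67 members. The difference in covered length ranged from −1223 bp, without WT replicate 2, to 5318 bp in the chromosome 15 cluster and from 2070 to 8795 bp in the chromosome 11 cluster. The difference in width at Krt18 ranged from −16.5 bp, without S7KO replicate 4, to 41.5 bp. At Krt8 it ranged from −13.8 bp, without S7KO replicate 2, to 41.7 bp, and was −1.83 bp without S7KO replicate 4 and −8 bp without WT replicate 1. At Krt7 it ranged from 4.83 bp, without WT replicate 2, to 807.2 bp, without S7KO replicate 2, around 357 bp, and at Krt19 from 75.5 to 156.5 bp. The cause was not tested. The same replicate numbers occur in both genotypes, but the correlations of same-numbered S7KO and WT libraries over 158725 regions (0.106, −0.00239 and 0.142) did not all pass 0.1. The numbers were therefore not taken as pairs. For S7KO and WT libraries of different numbers the same measure lay between −0.171 and 0.0757, below the values of replicates 1 and 4. With the replicate block the difference in members with a peak within 1 kb was 3, and no call was gained, since its smallest p is 0.25. Depth is known only as a relative estimate, and a peak missing from a list was not detectable at that depth rather than absent.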
